A study of Mus musculus with 11 samples.

Results

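The genes described here encode the subunits of the 5 oxidative phosphorylation complexes that are made from nuclear DNA. They were taken by name alone: complex I names start with Nduf followed by a, b, c, s or v and a number, complex II is Sdha to Sdhd, complex III is Cyc1 and the Uqcr genes, complex IV is the Cox4 to Cox8 genes and complex V is the Atp5 genes, with pseudogene names left out. Of 20957 genes in the table, 84 names matched, 1 of them was a pseudogene, and all of the other 83 had 10 or more normalized counts in 3 or more of the 11 libraries, so no member was lost to the filter on low values. Complex I gave 37 genes, complex II 4, complex III 9, complex IV 17 and complex V 16. A name is not a proof of a place in the complex: Atp5s, which encodes a coupling factor-like protein that is not a stable part of ATP synthase, is included by its name.

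RNA was sequenced from small pieces of striatum of BACHD mice, which are heterozygous for a transgene, the whole mutant human huntingtin gene on a bacterial artificial chromosome, in addition to the mouse Htt gene, on an FVB/N background. All 3 groups carried the transgene, so there was no group of wild type mice. The mice received SPI-77 (3 libraries), SPI-24 (4 libraries) or the DMSO vehicle (4 libraries) as a subcutaneous injection on each of 4 days, and the tissue was taken 6 h after the final injection. Both compounds were described in the study as inhibitors of the pair of the elongation factor Spt5 and RNA polymerase II. The study's methods give smaller daily subcutaneous amounts for SPI-77 than for SPI-24, so doses were not matched, and the labels tie no dose, age, sex or sequencer to a library.

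Oxidative phosphorylation is the way in which mitochondria turn the energy of food into ATP, and neurons rely on it for most of their ATP. Complexes I and II feed electrons from NADH and from succinate into the inner mitochondrial membrane, complex III passes them to cytochrome c, complex IV hands them to oxygen, and complexes I, III and IV pump protons as they do so. Complex V, the ATP synthase, lets the protons flow back and makes ATP. Most subunits are made from nuclear genes with short mRNAs, a few of the catalytic ones are made inside mitochondria, and complex II alone is wholly nuclear-encoded. Loss of complex II activity is known to damage the striatum, which is lost early in the course of Huntington's disease.

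Library depth, recovered from the table, lay between 10.2 M reads (SPI-77 3) and 33.8 M reads (DMSO 4). SPI-24 4 stood apart, with 16263 genes detected at 26.02 M reads, against 17932 to 20313 genes in the others. The pieces of tissue differed in make-up. Of the markers of medium spiny neurons, the main neurons of the striatum, 11 of 12 were used and none of them was at 0 in any library, and their summed normalized count was 4804 to 8021 in SPI-77, 3672 to 75412 in SPI-24 and 22521 to 86402 in DMSO libraries. The summed count of 9 thalamic markers was 14913 to 18138 in SPI-77, 11063 to 37340 in SPI-24 and 3213 to 16775 in DMSO libraries. The 6 mural markers summed to 3348 to 3699 in SPI-77, 2775 to 3215 in SPI-24 and 2034 to 2844 in DMSO libraries. In bulk tissue, fewer cells of a type and less RNA per cell cannot be told apart. Xist was at most 7.70 in the 3 SPI-77 libraries, in SPI-24 3, in DMSO 2 and in DMSO 4, and at least 3333 in the others, so the SPI-24 and DMSO groups, but not the SPI-77 group, held libraries of both kinds.

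The first question was how the subunit genes differed between mice given SPI-77 and mice given DMSO. At least 1 subunit gene of each of the 5 complexes rose in SPI-77 mice. Atp5k, the small subunit e of ATP synthase, Ndufs6, a complex I subunit with a zinc-binding fold, and Uqcr10, a small complex III subunit, had fitted folds of 2.31, 2.09 and 2.001, whereas the catalytic subunit genes Sdha and Ndufs1 had folds of 0.972 and 0.917 that did not pass the test. Of 83 subunit genes, 53 passed the test upward and 0 downward (limma on log2 normalized count + 1, Benjamini-Hochberg adjusted p below 0.05 over 16768 genes), where 8.03% of all genes passed upward and 9.14% downward. With a fold of at least 2 added, 11 subunit genes passed upward, against 1.12% of all genes, and 0 downward, against 5.28%. The median log2 fold change was 0.68 over the 83 genes and -0.01 over all genes, and 74 of the 83 lay above 0 (49.2% of all genes). At an unadjusted p below 0.05 there were 62 subunit genes, against 35.2% of all genes. The 3 SPI-77 libraries lay above all 4 DMSO libraries for 59 subunit genes (17.2% of all genes) and below them for 1 (15.3% of all genes). The number of passing genes depended on single libraries: it was 0 without DMSO 2, 0 without DMSO 4, 0 without SPI-77 1 and 0 without SPI-77 3, and none of all 16768 genes passed in these 4 fits, although the median then lay between 0.56 and 0.70, 56 to 61 subunit genes had an unadjusted p below 0.05 and the lowest adjusted p was 0.0536 to 0.0836. It was 62 without DMSO 1, where 2254 of all genes passed upward and 2577 downward. It was 49 without DMSO 3 (858 and 889 of all genes) and 42 without SPI-77 2 (626 and 773). With both replicate 4 libraries, DMSO 4 and SPI-24 4, left out it was 43, where 845 of all genes passed upward and 762 downward. The count fell to 3 upward and 2 downward, with a median of 0.16 (459 upward and 1025 downward of all 16752 genes with a length), once each library's trend with transcript length was removed, as described further on.

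**Figure D1:**
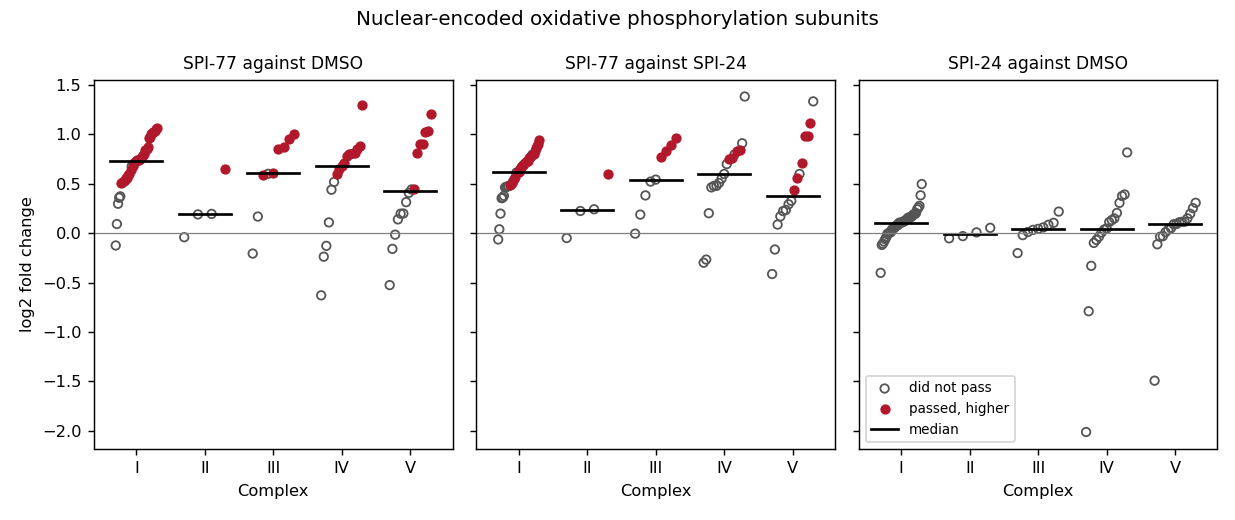
Log2 fold change (vertical axis) of each of the 83 subunit genes by complex (horizontal axis) in the 3 comparisons. Filled points passed the limma test upward, open points did not pass, and bars are medians: complex I lies highest for SPI-77 against DMSO (0.73) and complex II lowest (0.19), and no point is filled for SPI-24 against DMSO.

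Summed over the 83 genes, the subunits took 2.45%, 2.20% and 2.49% of the reads in SPI-77 libraries 1 to 3, against 1.91%, 1.44%, 1.83% and 1.51% in DMSO libraries 1 to 4. The SPI-77 and DMSO ranges did not overlap. Relative to the DMSO mean of each gene, the median shift of the 83 genes was 0.61, 0.55 and 0.84 on the log2 scale in SPI-77 libraries 1 to 3, and 0.30, -0.24, 0.11 and -0.13 in DMSO libraries 1 to 4. All SPI-77 libraries lay above all DMSO libraries, among which DMSO 1 was highest and DMSO 2 lowest.

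**Figure D2:**
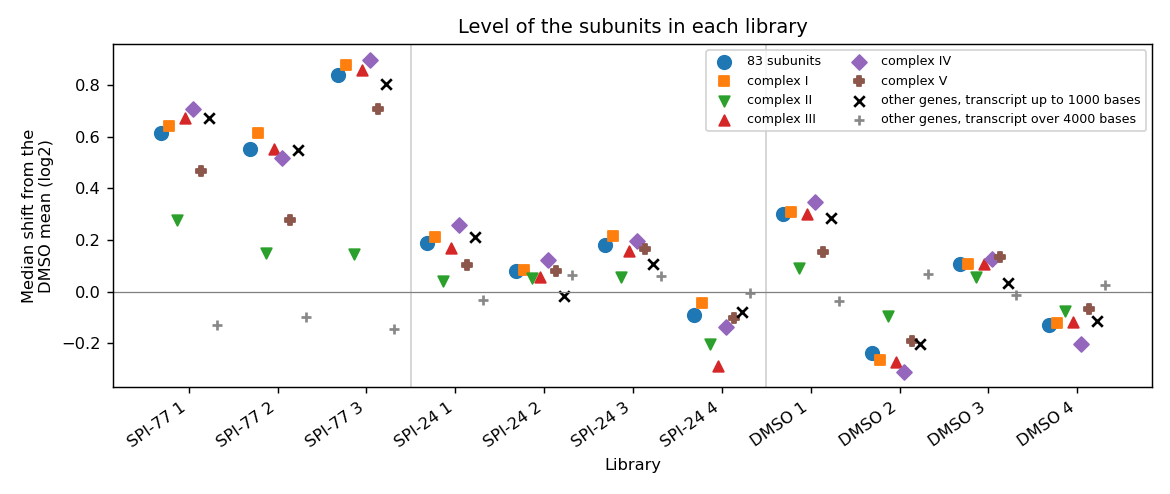
Median shift from the DMSO mean (log2, vertical axis) in each of the 11 libraries (horizontal axis), for the 83 subunit genes, for each complex, and for other protein-coding genes with short or long transcripts and a mean normalized count of at least 500. The SPI-77 libraries lie at 0.55 to 0.84 for the subunits, SPI-24 4, DMSO 2 and DMSO 4 lie below 0, and the other short transcripts lie close to the subunits in every library.

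Complex I takes electrons from NADH. Of its 37 genes, 29 rose in SPI-77 mice and 0 fell, with a median log2 fold change of 0.73. Beside this count, and those of the other complexes below, 8.03% of all genes rose and 9.14% fell. Ndufs6 had 2617, 2087 and 2817 normalized counts in SPI-77 libraries, against 1402, 1025, 1338 and 1041 in DMSO libraries. The lowest SPI-77 library lay well above the highest DMSO library, and the log2 fold change was 1.06 ± 0.17 (SE, adjusted p = 0.0179, limma). Ndufa2, a subunit of the arm that faces the matrix, had 4110.5, 3749 and 4859 in SPI-77 libraries, against 2805, 1597, 2225 and 1689 in DMSO libraries. Its groups did not overlap either (1.06 ± 0.18, SE, adjusted p = 0.0179, limma). Ndufa13, known also as the cell death regulator GRIM-19, averaged 11128 ± 2210.5 in SPI-77 (SD, n = 3) and 5451 ± 1136 in DMSO libraries (SD, n = 4). Ndufb7 and Ndufb9, subunits of the membrane arm, rose by 1.03 ± 0.19 and 1.01 ± 0.18 (SE) on the log2 scale, and Ndufa3 by 1.002 ± 0.25 (SE).

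The 7 nuclear-encoded core subunits of complex I, which hold the flavin, the iron-sulphur clusters or the quinone site and have relatives in bacteria, were split. Of the 7, 5 rose (median 0.56), among them Ndufs8, Ndufs7 and Ndufv2, while Ndufs3 and Ndufs1 did not pass the test. Ndufv1, which binds NADH and the flavin, had 6512, 6138 and 6997 normalized counts in SPI-77 libraries, against 5187, 3691, 4334 and 3326 in DMSO libraries (0.68 ± 0.18, SE, adjusted p = 0.0285, limma). All 3 SPI-77 values lay above the DMSO values. Ndufs1, the largest iron-sulphur subunit, had 1989, 1668 and 1642 in SPI-77 libraries, against 1509, 2045, 2038 and 2152 in DMSO libraries. These ranges overlapped, and the log2 fold change was -0.12 ± 0.15 (SE, adjusted p = 0.592, limma), with a 95% interval from -0.45 to 0.20. Of the 30 supernumerary subunits, 24 rose, with a median of 0.74. The transcripts of the core subunits had a median length of 1623 bases and those of the supernumerary subunits 718 bases.

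Complex II, succinate dehydrogenase, links the citrate cycle to the electron transport chain, and only 1 of its 4 genes rose. Sdhb, the iron-sulphur subunit, had 3801, 3499 and 3947 normalized counts in SPI-77 libraries, against 3074, 2039, 2408 and 2146 in DMSO libraries. Its groups did not overlap (0.65 ± 0.14, SE, adjusted p = 0.0188, limma). Sdha, the flavin-bearing catalytic subunit, had 5866, 5041 and 5059 in SPI-77 libraries, against 4996, 5347, 5622 and 5921 in DMSO libraries. The SPI-77 values lay within the DMSO range, and the log2 fold change was -0.04 ± 0.11 (SE, adjusted p = 0.824, limma), with a 95% interval from -0.28 to 0.20. The membrane anchor genes Sdhc and Sdhd had log2 fold changes of 0.20 ± 0.15 and 0.19 ± 0.13 (SE), which did not pass.

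Complex III moves electrons from ubiquinol to cytochrome c. Of its 9 genes, 6 rose in SPI-77 mice (median 0.61). The small subunit gene Uqcr10 had 4394, 2924 and 3889.6 normalized counts in SPI-77 libraries, against 2368, 1484, 1982 and 1647 in DMSO libraries, with no overlap (1.0005 ± 0.19, SE, adjusted p = 0.0179, limma). Uqcrh, the hinge protein that helps cytochrome c1 meet cytochrome c, rose by 0.95 ± 0.21 (SE). Among the subunits with redox centres, Cyc1, which encodes cytochrome c1, rose (0.59 ± 0.17, SE), averaging 6429 ± 560.4 in SPI-77 (SD, n = 3) and 4333 ± 849.7 in DMSO libraries (SD, n = 4). Uqcrfs1, the Rieske iron-sulphur protein, had 2459, 2486 and 2640.1 in SPI-77 libraries, against 2006, 2066, 2836 and 2175 in DMSO libraries. Its ranges overlapped because of DMSO 3 alone (0.17 ± 0.21, SE, adjusted p = 0.601, limma). The 2 core proteins differed: Uqcrc1 rose by 0.61 ± 0.16 (SE), and Uqcrc2 had -0.21 ± 0.12 (SE), which did not pass.

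Complex IV, cytochrome c oxidase, passes the electrons to oxygen. Of its 17 genes, 10 rose (median 0.68). Cox4i1, the general form of subunit 4 and the most abundant subunit mRNA per kilobase of transcript in DMSO mice, had 29497, 24476 and 32413 normalized counts in SPI-77 libraries, against 20006, 12553, 17229 and 13527 in DMSO libraries. Every SPI-77 value exceeded every DMSO value (0.88 ± 0.18, SE, adjusted p = 0.0179, limma). Cox4i2, its hypoxia-responsive and lung-rich copy, had 122.5, 128 and 202 in SPI-77 libraries, against 91.9, 44.5, 70.6 and 41.6 in DMSO libraries. Its log2 fold change of 1.30 ± 0.34 (SE, adjusted p = 0.0256, limma) was the largest of the 83 genes, and its level per kilobase was at most 0.634% of the pair with Cox4i1 in any library. Cox5b, which holds a zinc ion, rose by 0.71 ± 0.22 (SE). Cox5a, the partner of subunit 4 on the matrix side, had 3871, 2361 and 2551 in SPI-77 libraries, against 2035, 1976, 2550.1 and 1917 in DMSO libraries, a fold change that rested on SPI-77 1 and did not pass (0.44 ± 0.26, SE, adjusted p = 0.241, limma).

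Complex V makes ATP. Of its 16 genes, 7 rose in SPI-77 mice (median 0.43). Atp5k had 6491, 4649 and 7128 normalized counts in SPI-77 libraries, against 3198, 2053, 2946 and 2357 in DMSO libraries, and the groups were far apart (1.21 ± 0.21, SE, adjusted p = 0.0179, limma). Atp5e, the epsilon subunit of the central stalk, had 5149, 4503 and 6166 in SPI-77 libraries, against 3604, 1853, 2767 and 2280.4 in DMSO libraries (1.04 ± 0.19, SE, adjusted p = 0.0179, limma). Atp5j2, subunit f of the membrane part, rose by 1.022 ± 0.21 (SE). The large subunits of the catalytic head did not pass the test. Atp5b, the catalytic beta subunit, had 35339, 32720.5 and 38069 in SPI-77 libraries, against 30168, 24034, 29513 and 23405 in DMSO libraries. Its SPI-77 values all lay above the DMSO values, but the gene did not pass (0.41 ± 0.14, SE, adjusted p = 0.0604, limma). Atp5a1, the alpha subunit, averaged 17838 ± 1862 in SPI-77 (SD, n = 3) and 16159 ± 1029 in DMSO libraries (SD, n = 4), and Atp5c1, the gamma subunit that turns inside the head, averaged 4780.2 ± 751 in SPI-77 and 4139 ± 295 in DMSO libraries, with log2 fold changes of 0.14 ± 0.12 and 0.20 ± 0.12 (SE) that did not pass. Atp5s had 148, 157 and 152 in SPI-77 libraries, against 188, 199, 228 and 271 in DMSO libraries, and was the only one of the 83 genes whose SPI-77 libraries all lay below the DMSO libraries (-0.53 ± 0.19, SE, adjusted p = 0.0655, limma).

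**Figure D3:**
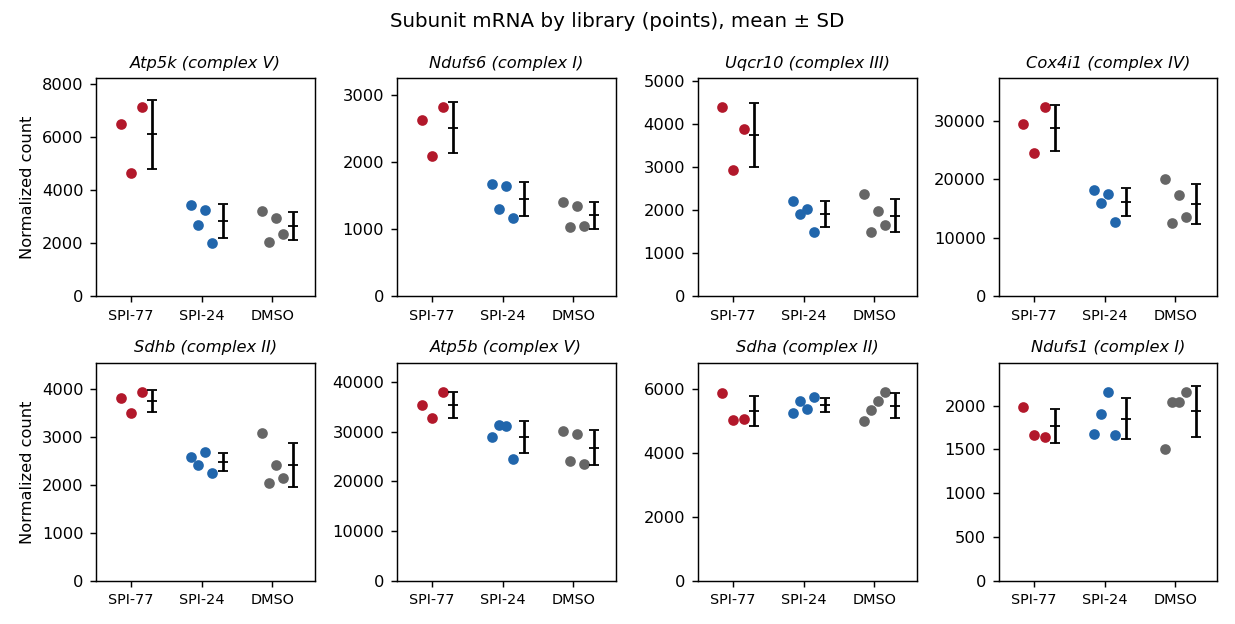
Normalized counts (vertical axes, from 0) of 8 subunit genes in SPI-77, SPI-24 and DMSO libraries (horizontal axes). Points are libraries and bars are mean ± SD (n = 3, 4 and 4): the SPI-77 points of Atp5k, Ndufs6, Uqcr10, Cox4i1, Sdhb and Atp5b lie above all DMSO points, and those of Sdha and Ndufs1 lie among them.

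Where 2 or 3 genes encode forms of the same subunit, 1 form gave most of the counted signal per kilobase of transcript in every group. Cox4i2 made up 0.530% ± 0.105 of the Cox4i1 and Cox4i2 pair in SPI-77 (SD, n = 3), 0.508% ± 0.127 in SPI-24 (SD, n = 4) and 0.391% ± 0.067 in DMSO libraries (SD, n = 4), and these ranges overlapped. The muscle form Cox6a2 made up at most 0.335% of its pair with Cox6a1, and the heart and muscle form Cox7a1 2.35% to 5.82% of its pair with Cox7a2. Cox7a2l, which helps to join complexes III and IV, rose by 0.80 ± 0.19 (SE), as did Cox7a2 (0.81 ± 0.18, SE), Cox6a1 (0.68 ± 0.17, SE), Cox6b1 (0.85 ± 0.20, SE) and Cox8a (0.60 ± 0.15, SE). The testis-rich Cox6b2 and the muscle form Cox8b had -0.13 ± 0.39 and -0.63 ± 0.97 (SE), neither of which passed. Ndufa4, now placed in complex IV by structural work although its name put it in complex I here, rose by 0.58 ± 0.15 (SE), and its copy Ndufa4l2 had 0.71 ± 0.27 (SE, adjusted p = 0.0805, limma). With the length trend removed, the log2 fold changes of Cox6a1 (-0.038), Cox8a (-0.14) and Ndufa4 (-0.11) lay below 0. Of the 3 genes for the c ring of ATP synthase, which encode the same mature protein, Atp5g3 had 0.31 ± 0.12, Atp5g1 0.44 ± 0.20 (SE), and Atp5g2, which was close to the limit on low values, -0.16 ± 0.77 (SE), none of which passed. For Atp5g2, 100% of the 50-base stretches of its transcript were also found in other genes. Its expression could therefore not be judged from its count.

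Promoter sequence was available in the RefSeq table of GRCm38.p6 for 67 of the 83 genes, 1 of them under its newer symbol Atp5pb. Genes without an entry included Cox4i1, Cox4i2, Cox6a2, Cox6c, Cyc1, Atp5a1, Atp5s, Ndufa2, Ndufa4l2, Ndufb9, Ndufs1, Sdhc, Uqcrb, Uqcrc2 and Uqcrq. The window runs from 250 bases before the start site to 50 bases after it. The promoters of 3 genes with high rises and of Sdha, which did not change detectably, are shown because many subunit genes rose and the family has known nuclear regulators. Capitals mark matches on either strand to GCGCATGCG (the factor NRF1), CCGGAAG (GABPA and other ETS factors), AAGATGGCG (YY1) and AAGGTCA (the receptor ERR alpha), and GCGCATGCG matches on both strands can overlap.
Atp5k, chr5:108434350-108434649, - strand: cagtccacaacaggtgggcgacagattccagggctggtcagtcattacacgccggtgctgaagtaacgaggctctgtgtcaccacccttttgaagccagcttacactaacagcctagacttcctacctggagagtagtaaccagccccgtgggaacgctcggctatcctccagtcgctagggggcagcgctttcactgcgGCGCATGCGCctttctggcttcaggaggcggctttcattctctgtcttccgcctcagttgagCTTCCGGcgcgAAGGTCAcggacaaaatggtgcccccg
Atp5e, chr2:174464052-174464351, - strand: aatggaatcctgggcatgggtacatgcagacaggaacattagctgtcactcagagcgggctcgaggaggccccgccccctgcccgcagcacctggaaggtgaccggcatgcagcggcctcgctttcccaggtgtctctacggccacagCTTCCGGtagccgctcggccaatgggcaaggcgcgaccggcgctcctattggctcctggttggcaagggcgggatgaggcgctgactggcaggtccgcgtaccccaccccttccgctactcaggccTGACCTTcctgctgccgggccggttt
Ndufs6, chr13:73328433-73328732, - strand: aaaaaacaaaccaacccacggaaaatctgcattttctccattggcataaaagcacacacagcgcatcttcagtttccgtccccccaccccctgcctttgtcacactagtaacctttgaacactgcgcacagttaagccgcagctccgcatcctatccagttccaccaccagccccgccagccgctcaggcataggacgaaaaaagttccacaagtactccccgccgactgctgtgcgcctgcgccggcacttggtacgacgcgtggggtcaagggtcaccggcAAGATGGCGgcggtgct
Sdha, chr13:74350191-74350490, - strand: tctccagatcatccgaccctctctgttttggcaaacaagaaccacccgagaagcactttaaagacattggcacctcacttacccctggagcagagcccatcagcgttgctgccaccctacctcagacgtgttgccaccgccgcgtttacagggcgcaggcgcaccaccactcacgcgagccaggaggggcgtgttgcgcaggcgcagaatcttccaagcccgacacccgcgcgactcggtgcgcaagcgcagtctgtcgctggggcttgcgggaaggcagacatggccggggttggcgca
In these windows Atp5k held GCGCATGCG on both strands, CCGGAAG and AAGGTCA, Atp5e held CCGGAAG and AAGGTCA, Ndufs6 held AAGATGGCG, and Sdha held none of the 4.

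These 4 motifs were held by a larger share of subunit promoters than of the other promoters in the RefSeq table. GCGCATGCG was held by 8 of 67 subunit promoters (11.9%) and by 1.78% of 26958 others, CCGGAAG by 22.4% and 9.09%, AAGATGGCG by 8.96% and 1.48%, and AAGGTCA by 11.9% and 4.64%. Among the 45 promoters of genes that rose in SPI-77 mice, the shares for these 4 motifs were 13.3%, 24.4%, 11.1% and 6.67%. Among the 22 promoters of the other subunit genes they were 9.09%, 18.2%, 4.55% and 22.7%. For GGGCGG (SP1) the share was 40.3% of the subunit promoters and 35.9% of the others, with 37.8% among genes that rose and 45.5% among the other subunit genes, and for CCAAT (NFY) it was 43.3% and 37.9%, with 40% and 50%. These are counts of letters on both strands of a window and were given no test. The other promoters were not limited to genes detected in these libraries.

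The rise in SPI-77 mice went with transcript length, inside and outside the complexes. Among the 68 subunit genes with a mean normalized count of at least 500, 36 of 41 with a principal transcript of up to 1000 bases rose (87.8%), 14 of 22 with over 1000 and up to 2000 bases (63.6%) and 1 of 5 with over 2000 and up to 4000 bases (20%). Other protein-coding genes at this level followed the same order: 64.5% of 287, 33.5% of 1201 and 12.5% of 2409 rose, and 4.08% of 2081 with over 4000 bases. The median log2 fold changes of the 3 classes were 0.81, 0.55 and 0.14 for the subunit genes and 0.68, 0.39 and 0.16 for the others. Across genes, which are not replicates, Spearman's rho between length and log2 fold change was -0.54 over the 68 subunit genes and -0.48 over the 5978 others.

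This relation was present library by library. The median shift of the 287 other short transcripts from their DMSO mean was 0.67, 0.55 and 0.80 in SPI-77 libraries 1 to 3, and 0.28, -0.20, 0.03 and -0.11 in DMSO libraries 1 to 4, close to the values of the subunit genes in the same libraries. When the trend with transcript length, fitted on the 5978 other genes, was taken out of each library, an alternative chosen after the relation was seen, 3 subunit genes rose and 2 fell, with a median of 0.16, where 459 of all 16752 genes rose and 1025 fell, with a median of -0.12. Those that rose were Ndufa13, Uqcrq, a ubiquinone-binding subunit of complex III, and Atp5j2, and those that fell were Atp5s and Uqcrc2. By complex the median was then 0.19 for I, 0.03 for II, 0.17 for III, -0.07 for IV and 0.10 for V.

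**Figure D4:**
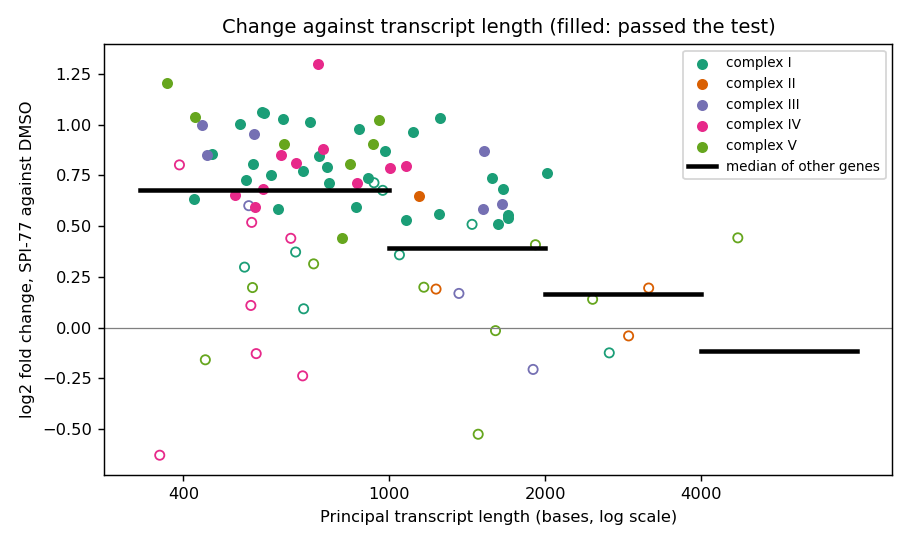
Log2 fold change of SPI-77 against DMSO (vertical axis) against the length of the principal transcript (horizontal axis, log scale) for the 83 subunit genes, coloured by complex and filled where they passed the test. Black bars are the medians of other protein-coding genes with a mean normalized count of at least 500 in 4 length classes, from 0.68 up to 1000 bases to -0.12 over 4000 bases.

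The make-up of the tissue also differed between SPI-77 and DMSO mice. All 11 medium spiny markers had log2 fold changes below 0 (median -2.91, 5 of 11 fell), all 9 thalamic markers lay above 0 (median 1.29, 2 rose) and 3 of 6 mural markers rose. The 6 choroid plexus and 6 ependymal markers all lay below 0 (medians -1.46 and -1.24), and 0 passed. Their summed counts were 32285 to 93131 and 599 to 1062 in SPI-77 libraries, against 72571 to 193516 and 1624 to 2167 in DMSO libraries. Over all genes, 8.03% rose and 9.14% fell. Of 6 markers each, 2 rose and 3 fell for astrocytes (median -0.45), 2 fell for microglia (median -0.27), 1 rose for endothelial cells (median 0.34), and 0 passed for oligodendrocytes (median 0.45) and cortical excitatory neurons (median 0.19). With the medium spiny score as a term in the fit, 0 subunit genes passed and their median was 0.44, and with the thalamic score 0 passed and the median was 0.50. None of all 16768 genes passed in either fit. SPI-24 2 and SPI-24 3 had medium spiny sums of 3768 and 3672, below all 3 SPI-77 libraries. Their median shifts of the subunit genes were 0.08 and 0.18, against 0.55 to 0.84 in SPI-77. SPI-24 1 and SPI-24 4 had sums of 30492 and 75412 and shifts of 0.19 and -0.09. In DMSO libraries 1 to 4 the sums were 22521, 86402, 30190 and 54924 and the shifts 0.30, -0.24, 0.11 and -0.13. Within the DMSO group, a library with a higher sum had a lower shift. With the Xist level as a term, 52 subunit genes rose, where 1518 of all genes rose and 1889 fell. In the 5 SPI-77 and DMSO libraries with low Xist alone, an alternative chosen after its values were seen, 63 rose with a median of 0.86, where 3030 of all 16768 genes rose and 3202 fell. The medium spiny sums of SPI-77 and DMSO libraries did not overlap (4804 to 8021 against 22521 to 86402). The fit with that score therefore cannot separate tissue make-up from group. The part of tissue make-up in the rise was not tested.

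The next question was whether the 2 compounds, at unmatched doses, differed from each other. Subunit genes were higher in SPI-77 than in SPI-24 mice, with 76 of 83 log2 fold changes above 0 (52.6% of all genes) and a median of 0.57. Of the 83 genes, 37 passed upward and 0 downward, where 3.05% of all genes passed upward and 3.96% downward, and 1 (Atp5k) also had a fold of at least 2 (0.34% of all genes upward, 2.45% downward). At an unadjusted p below 0.05 there were 56, against 29.8% of all genes. Complex I gave 22 of the 37 genes, complex II 1, complex III 4, complex IV 4 and complex V 6. Atp5k had 6491, 4649 and 7128 normalized counts in SPI-77 libraries, against 3412, 2660.2, 3233 and 2012 in SPI-24 libraries, with no overlap (1.11 ± 0.21, SE, adjusted p = 0.0372, limma). Uqcr10 (0.97 ± 0.19, SE) and Cox4i1 (0.84 ± 0.18, SE) were also among the 10 largest differences that passed. The SPI-77 libraries lay above all 4 SPI-24 libraries for 58 genes (16.1% of all genes) and below them for 1 (15.3% of all genes). Without DMSO 1 the count of passing genes was 46, where 1049 of all genes passed upward and 1561 downward. The count was 0 when DMSO 3, SPI-24 2, SPI-24 3, SPI-24 4 or any of the SPI-77 libraries was left out. The medians were then 0.50 to 0.63. In those fits with a count of 0, none of all 16768 genes passed upward, and 3 passed downward without SPI-77 2 and none in the others. The count was also 0 with the length trend removed, where the median was 0.075 and none of all genes passed, and 0 with the medium spiny score as a term, where 2 of all genes passed, both downward.

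The last comparison asked whether SPI-24 changed the subunit genes. No subunit gene passed the test in SPI-24 mice, and none of all 16768 genes did (0% upward and 0% downward). The median log2 fold change was 0.08, with 61 of 83 above 0 (46.1% of all genes), and no adjusted p was under 0.975 (limma). Unadjusted, 3 subunit genes had a p below 0.05 (3.73% of all genes), and on the recovered reads edgeR and DESeq2 called 0, with 3 and 4 subunit genes below that unadjusted p. No subunit gene had SPI-24 libraries that all lay above (0.99% of all genes) or all below (0.817% of all genes) the DMSO libraries. Ndufa12, a complex I subunit, had 544, 344, 392 and 498 normalized counts in SPI-24 libraries, against 277, 316, 298 and 352 in DMSO libraries. SPI-24 2 lay within the DMSO range and the other SPI-24 libraries above it (0.50 ± 0.17, SE, adjusted p = 0.975, limma). Ndufv3, an accessory subunit near the flavin site, had 0.38 ± 0.17 and Cox7b 0.31 ± 0.15 (SE), neither of which passed. Cox8b (-2.01 ± 0.90, SE) and Atp5g2 (-1.49 ± 0.71, SE) had the lowest log2 fold changes, at low counts, and did not pass. The median of the 83 genes was -0.05 with the medium spiny score and -0.10 with the thalamic score as a term. It was -0.01 without DMSO 2, 0.16 without SPI-24 4 and 0.17 without DMSO 1. For most genes the data do not exclude modest changes: the 95% intervals ran from -0.21 to 0.23 for Sdha and from -0.16 to 0.40 for Atp5b.

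Other genes of the pathway were also compared between SPI-77 and DMSO mice, where 8.03% of all genes rose and 9.14% fell. The 7 mitochondrially encoded subunits in the table had log2 fold changes with a median of -0.43, and 0 of 7 passed in either direction. mt-Nd5, a proton-pumping subunit of complex I, had 16649.7, 19552 and 20885 normalized counts in SPI-77 libraries, against 22857, 39249.9, 46031 and 77815 in DMSO libraries, without overlap (-1.16 ± 0.37, SE, adjusted p = 0.0526, limma), and mt-Co1, the catalytic subunit of complex IV, had -1.003 ± 0.36 (SE, adjusted p = 0.0717, limma). The DMSO values of both were widely spread, with DMSO 4 highest. Of 41 assembly factors, 12 rose and 1 fell. Uqcc2 and Uqcc3, which help to build complex III, rose by 0.98 ± 0.21 and 0.76 ± 0.19 (SE), Cox17, the copper carrier of complex IV, rose by 0.87 ± 0.27 (SE), and Acad9, needed for complex I, fell by 0.52 on the log2 scale. Of 15 citrate cycle enzymes, Suclg1 and Idh3g rose (0.55 ± 0.14 and 0.51 ± 0.12, SE) and 0 fell, a share upward of 13.3%, near that of all genes.

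Genes for known regulators of oxidative phosphorylation gave no rise that passed the test. The 16 regulators included Tfam, Tfb1m, Tfb2m and Polrmt, which act on mitochondrial DNA rather than on these nuclear genes. Of the 16, 0 rose (8.03% of all genes) and 3 fell (9.14% of all genes), with a median of -0.41. Gabpa had 73.3, 67.1 and 53.5 normalized counts in SPI-77 libraries, against 74.7, 269.8, 204 and 282 in DMSO libraries. DMSO 1 lay just above the SPI-77 libraries (-1.51 ± 0.44, SE, adjusted p = 0.0373, limma). Esrrg, a receptor of the ERR family, and Nfe2l2, a stress-responsive factor, were the others that fell (-1.49 ± 0.42 and -0.71 ± 0.22, SE). The other regulators did not pass. The coactivator Ppargc1a had -0.56 ± 0.22 (SE, adjusted p = 0.0961, limma), Nrf1 -0.07 ± 0.16 and Tfam, the packaging factor of mitochondrial DNA, -0.15 ± 0.19 (SE). The regulators had a median transcript length of 3706 bases, against 763 for the subunits.

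Other lists of genes with short transcripts also held genes that rose in SPI-77 mice. Of 88 cytosolic ribosomal protein genes, 34 rose and 3 fell (median 0.63), where 8.03% of all genes rose and 9.14% fell. Of 78 mitochondrial ribosomal protein genes, 31 rose and 0 fell (median 0.49), and of 38 proteasome subunit genes, 18 rose and 0 fell (median 0.42). Median transcript lengths were 843, 1253 and 1541 bases in these 3 lists. In SPI-24 mice none of these lists had a passing gene, as none of all genes tested passed, and the medians were -0.08, 0.04 and 0.03.

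**Figure D5:**
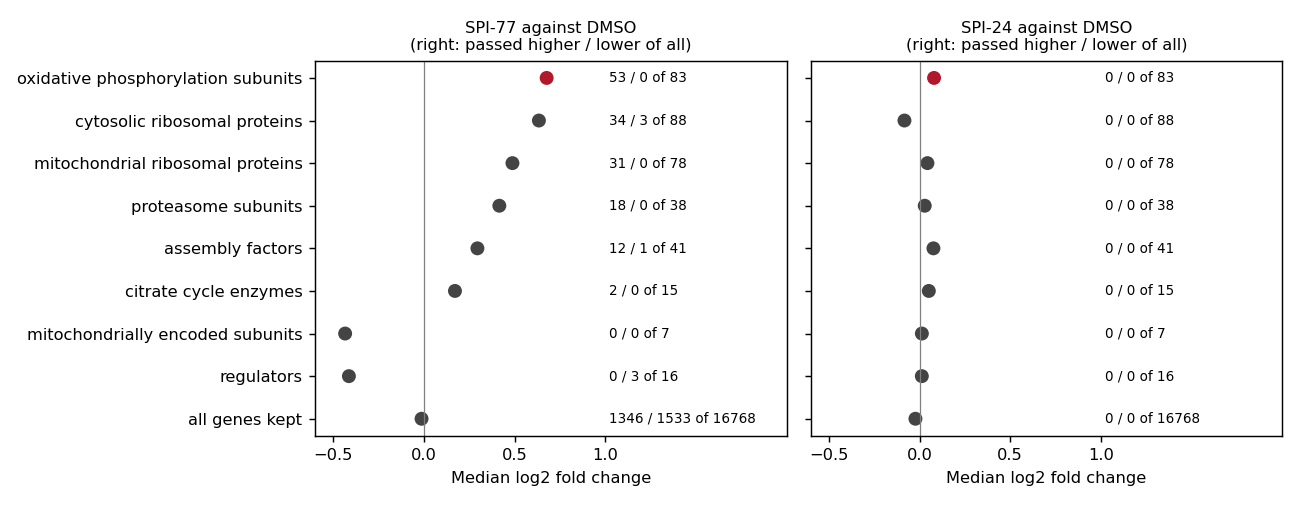
Median log2 fold change (horizontal axis) of the subunit genes and of other gene lists (vertical axis) for SPI-77 against DMSO (left) and SPI-24 against DMSO (right), with the number of genes that passed the limma test higher and lower. For SPI-77 the medians run from 0.68 for the subunit genes to -0.43 for the mitochondrially encoded subunits, and for SPI-24 all lie between -0.08 and 0.08.

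Levels in DMSO mice differed widely between subunits even per kilobase of transcript. In each complex the highest and lowest mean normalized counts per kilobase were 7731 for Ndufa4 and 19.2 for Ndufs5 (complex I), 2116 for Sdhb and 515 for Sdhc (complex II), 8332 for Uqcrh and 1072 for Uqcrb (complex III), 21247 for Cox4i1 and 19.2 for Cox7b2 (complex IV), and 13977 for Atp5b and 26.4 for Atp5g2 (complex V). Some low values belong to genes that share sequence with transcripts of other genes. Reads mapping to several regions were left out of the counts, and whether this lowered these values was not tested. Of the 50-base windows of the principal transcript, 100% were also found in transcripts of other genes for Atp5g2, 84.8% for Atp5l, 53.0% for Cox7c, 50.5% for Atp5h, 50.3% for Atp5o, 43.4% for Uqcrb and 41.2% for Ndufs5. Their levels are therefore uncertain and their changes poorly measured: Cox7c had 25.3, 18.7 and 23.2 normalized counts in SPI-77 libraries, against 10.3, 27.8, 20.96 and 29.0 in DMSO libraries, and of these genes only Atp5h and Atp5o passed the test in any comparison. Shared windows and low counts did not always go together. Atp5h and Atp5o averaged 1612 and 3568 normalized counts in DMSO libraries, and Cox7b2, at a low level, shared 0% of its windows. Ndufa13 (28.5%) and Ndufb9 (23.4%), among the largest rises, also shared windows. The members nearest above the limit on low values were Atp5g2, with a highest library at 18.8, Ndufs5 at 20.7 and Cox7b2, a testis-rich form, at 32.3.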

How the data were processed

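Libraries were made with a stranded mRNA kit and read as single reads of 50 bases. The authors trimmed reads with cutadapt, aligned them to GRCm38 with STAR and counted them per gene with HTSeq, without reads shorter than 30 bases or mapping to several regions, as the paper's methods and GEO's notes state. Tool versions and the strand setting are not stated there. The deposited table holds a signal, the normalized read counts obtained by dividing by a DESeq2 size factor. Its columns of fold changes and p-values hold the authors' own comparisons and were not used.

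Reads were recovered (100% of values lay within 0.1 of a whole read in each of the 11 libraries, mean 17.2 M reads). Libraries of 1 group are labelled biological replicates, and none agreed within counting noise. Genes with at least 10 normalized counts in at least 3 libraries (16768) were tested with limma 3.58.1 (R 4.3.3; trend, robust variance) on log2(normalized count + 1), a scale that understates changes of low genes, with 3 groups in 1 fit and Benjamini-Hochberg adjustment over all genes. A gene that passed had an adjusted p below 0.05. The method was tested on simulated data. edgeR 4.0.16 and DESeq2 1.42.0 were alternatives. Coordinates and principal transcripts (best APPRIS class) come from GENCODE annotation of GRCm38. The members and lists were chosen with earlier results of these data known. Named were the 10 passing members with the largest change in each direction (or the 5 with the smallest p), core subunits, paralogues, the extremes per kilobase and the members nearest the limit on low values. Others named were chosen after their values were seen. Of the 12 medium spiny markers, Bcl11b was not used here. Values of 1 subunit gene are not reported here.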

Additional observations from a re-analysis of the deposited data

Results flagged for a closer look

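Of 106 sets of 4 libraries checked for a single far value, 8 stood out, and in all 8 it was SPI-24 4, the library with the fewest genes detected, that lay below the other SPI-24 libraries. Chance gives about 1 in 20 independent groups, but these sets come from the same libraries and are not independent. The median shift of complex II was -0.20 in SPI-24 4, against 0.04 to 0.06 in the other SPI-24 libraries. Ndufv1 had 3087 normalized counts in SPI-24 4, against 4676 to 4847 in the others, and Uqcrc1 5399 against 7182 to 7441. Sdhc had 1257 against 1692 to 1734. Cox5a had 1153 against 2359 to 2479, and Cox7a2 2851 against 3979 to 4169. Atp5a1 had 13994 against 16295 to 16707, and Atp5g1 205.3 against 257 to 268. Without SPI-24 4, 0 subunit genes passed for SPI-24 against DMSO, with a median of 0.16.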

How the results depend on the processing

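With 1 library left out, the count of 53 subunit genes higher for SPI-77 against DMSO lay between 0 and 62. That of genes lower lay between 0 and 1, and the median between 0.56 and 0.77. Of all genes, 0 to 2254 were higher and 0 to 2577 lower in these fits. Against SPI-24 the count of 37 lay between 0 and 46, with a median of 0.50 to 0.63. There, 0 to 1049 of all genes were higher and 0 to 1561 lower. For SPI-24 against DMSO the counts stayed at 0, with the median between -0.01 and 0.17. The count higher for SPI-77 against DMSO was 35 without variance trend and robust variance, where 604 of all genes rose and 715 fell. It was 0 with the medium spiny or the thalamic score as a term and 11 with a fold of at least 2. With the length trend removed it was 3 (median 0.16, with 2 lower), and DESeq2 called 1 gene lower. For SPI-77 against SPI-24 it was 0 without variance trend and robust variance, without both replicate 4 libraries, with the medium spiny score and with the length trend removed (median 0.075), and 1 with a fold of at least 2. TMM, the pseudocounts of 0.5 and 5, the other filters, edgeR and a fit of only the 2 groups compared changed no count without a fold limit by more than 1.5 times. With a fold of at least 2 the count for SPI-77 against DMSO was 5 with edgeR, 8 with TMM and 5 with the replicate block. Without both replicate 4 libraries it was 3, and 43 without a fold limit. The labels do not say that replicate numbers pair the libraries. Between groups, correlations of deviations from the group means were -0.07 to 0.31 for same-numbered libraries and -0.36 to 0.16 for the others. The highest, 0.31 and 0.27, were of same-numbered libraries (DMSO 1 with SPI-24 1, DMSO 3 with SPI-24 3). Beyond a fit with the replicate number as a block, pairing was not tested. With the replicate block the count higher was 52 for SPI-77 against DMSO, where 1275 of all genes were higher and 1515 lower. Against SPI-24 it was 40, where 555 of all genes were higher and 809 lower.

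The log2 fold change of 17 named genes for SPI-77 against DMSO turned in sign under some setting. With the length trend removed it was -0.23 for Cox5a, -0.23 for Atp5c1, -0.038 for Cox6a1, -0.071 for Cox7a1, -0.14 for Cox8a, -0.11 for Ndufa4, -0.32 for Atp5g3, -0.15 for Uqcrb, -0.20 for Uqcrfs1, -0.46 for Ndufs5 and -0.22 for Cox7b2. With the medium spiny score it was -0.10 for Cox5a, -0.035 for Atp5a1, -0.11 for Sdhc, -0.31 for Uqcrfs1, -1.45 for Ndufs5, -0.23 for Cox7b2, 0.45 for Cox6b2 and 0.91 for Cox8b, and with the thalamic score -0.00798 for Sdhc, -0.13 for Uqcrfs1 and -0.086 for Ndufs5. With the Xist level as a term and in the low Xist libraries alone it was 0.16 and 0.26 for Cox6b2 and 0.039 and 0.13 for Cox8b, and with the replicate block -0.21 for Ndufs5. With 1 library left out, Cox6a2 lay between -0.57 and 0.27, Cox6b2 between -0.45 and 0.022, Cox8b between -1.27 and 0.20, Atp5g2 between -0.59 and 0.18 and Ndufs5 between -0.075 and 0.70. The cause was not tested. With 3 or 4 libraries a group, changes of genes with low counts, such as Atp5g2, Ndufs5 and Cox7b2, were not detectable at this depth.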
